A study of Mus musculus with 8 samples.

Results

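Transcripts of ninein (Nin) and of 6 other proteins found at or near the centriole were examined in RNA sequencing of mouse retina. They are 7 of the 26824 genes in the deposited count table. The members were taken by symbol: Nin, its paralog Ninl (ninein-like), Odf2, Cep170, Cep164, Pcm1 and Pcnt. The list was drawn up around Nin, which was chosen by its measured level: all libraries labelled KO lay above those labelled WT. The Nin values of that contrast are therefore given as a description, with no test. The other 6 were added for their place at or near the centriole and not for their levels.

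The centriole is a barrel of microtubules, and the older of a pair carries distal appendages, which dock it to a membrane, and subdistal appendages, from which microtubules are anchored. Ninein is a large coiled-coil protein of the subdistal appendages that holds the minus ends of microtubules. In a photoreceptor, the older centriole becomes the basal body from which the connecting cilium and the outer segment grow, and microtubules spread from it through the inner segment.

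Retinas came from untreated mice at 1 month of age, labelled WT (3 libraries, WT 1 to WT 3) or Kv8.2 KO (5 libraries, KO 2 to KO 6). Each library held 2 retinas, pooled, and libraries are taken as separate animals as the series text gives them. Kv8.2, encoded by Kcnv2, is a potassium channel subunit of photoreceptors that forms channels only together with other Kv subunits. Strain, sex and the design of the knockout allele are not given in the sources used here, nor is any difference between the groups other than genotype. The series text states that 2 KO samples were left out by the authors, without naming them, so all 5 were used.

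The libraries held 17759146 to 25188870 counts. Levels below are counts per 1000000 of the scaled library total (CPM). The floor of 3 counts corresponds to 0.119 to 0.169 counts per 1000000 of the unscaled total. The targeted gene Kcnv2 was present in every library, at 519 to 551 CPM in WT and 585, 447, 398, 409 and 409 CPM in KO 2 to KO 6. KO 2 lay above every WT library, and KO 3 to KO 6 lay below them all. The log2 fold change was -0.24 (SE 0.14, edgeR adjusted p-value 0.275). With KO 4 to KO 6 alone it was -0.38 (edgeR adjusted p-value 1.16e-04). The level of Kcnv2 thus does not mark every library labelled KO, and the groups are named by their labels throughout. Rod and cone markers were present in every library. The 8 rod genes summed to 41500 to 45000 CPM in WT and 37200 to 54900 CPM in the libraries labelled KO, with 1 gene higher (Sag). The sums of the 8 cone genes did not overlap, at 953 to 1190 CPM in WT and 688 to 916 CPM in KO. Their median log2 fold change was -0.53. Of the cone genes called (Gnat2, Pde6c, Gngt2 and Pde6h), 1 was higher and 3 were lower. At the same edgeR adjusted p-value, under 0.05, 4.74% of all tested genes were higher and 2.84% lower. KO 4, KO 5 and KO 6 stood apart from the other 5 libraries on the first principal component (39.5% of the variance), and mitochondrial genes took 3.03% to 3.70% of their counts, against 5.23% to 7.92% in the others. Lens genes took 4.84% of the counts of KO 3 and at most 0.17% of those of any other library. Results are therefore repeated with KO 4 to KO 6 alone and with KO 2 and KO 3 alone, and both comparisons use the same WT libraries.

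Nin (ENSMUSG00000021068) lies on chromosome 12 at 70011435 to 70113717 on the minus strand (GRCm38, GENCODE M21), with 34 merged exon blocks. RefSeq gives it 3 start sites. The 3 promoter windows are shown because Nin is the member whose level differed most between the groups, and that of Ninl because it is the paralog. Each runs from 250 bases before to 50 after a RefSeq start (GRCm38.p6), 5′ to 3′ on the gene's minus strand, and capitals mark GGGCGG or its complement, the GC box bound by SP factors.
Nin, chr12:70111986-70112285: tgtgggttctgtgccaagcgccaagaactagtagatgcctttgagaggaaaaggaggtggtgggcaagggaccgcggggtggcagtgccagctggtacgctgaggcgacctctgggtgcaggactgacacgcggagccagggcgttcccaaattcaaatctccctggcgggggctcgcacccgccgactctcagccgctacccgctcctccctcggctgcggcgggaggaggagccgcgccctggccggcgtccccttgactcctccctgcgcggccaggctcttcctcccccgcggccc
Nin, chr12:70111580-70111879: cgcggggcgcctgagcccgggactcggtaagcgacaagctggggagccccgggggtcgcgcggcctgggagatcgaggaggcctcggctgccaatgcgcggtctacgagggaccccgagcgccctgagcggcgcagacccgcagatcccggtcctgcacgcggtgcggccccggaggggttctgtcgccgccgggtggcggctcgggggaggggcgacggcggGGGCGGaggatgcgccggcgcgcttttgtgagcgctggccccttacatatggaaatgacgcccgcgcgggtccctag
Nin, chr12:70102805-70103104: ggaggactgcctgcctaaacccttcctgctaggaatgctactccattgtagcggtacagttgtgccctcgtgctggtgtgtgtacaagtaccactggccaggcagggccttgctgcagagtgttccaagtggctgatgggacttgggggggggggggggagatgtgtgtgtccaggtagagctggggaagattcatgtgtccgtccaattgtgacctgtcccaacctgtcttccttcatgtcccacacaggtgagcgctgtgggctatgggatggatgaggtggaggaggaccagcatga
Ninl, chr2:151009349-151009648: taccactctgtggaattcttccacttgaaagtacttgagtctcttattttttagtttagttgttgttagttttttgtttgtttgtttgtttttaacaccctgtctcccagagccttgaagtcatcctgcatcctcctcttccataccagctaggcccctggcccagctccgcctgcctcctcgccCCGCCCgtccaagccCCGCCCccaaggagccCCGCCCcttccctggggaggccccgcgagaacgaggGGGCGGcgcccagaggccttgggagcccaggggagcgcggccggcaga
The first and second Nin windows are rich in G and C (68.7% and 75.0%, against a median of 52.7% over 32817 windows). They hold 25 and 43 CpG pairs, while the last, the farthest downstream, holds 57.7% and 4. The 32817 windows leave out a chromosome on which no member lies. The second Nin window has 1 GC box and that of Ninl has 4, and 35.6% of the 32817 windows have at least 1. The other motifs, TTCNNNGAA (STAT factors) and TAATCC (the photoreceptor factor CRX), were searched on both strands, as was the GC box. Neither is in the Nin or Ninl windows, and 8.3% and 7.1% of the 32817 windows hold them. Gene counts do not tell which start was in use.

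In WT 1 to WT 3 Nin stood at 70.6, 73.4 and 74.8 CPM, and it stood at 203, 170, 232, 212 and 202 CPM in KO 2 to KO 6. The WT libraries lay close together, and the lowest library labelled KO, KO 3, was still far above the highest WT library. Mean levels were 72.9 ± 2.13 CPM for WT (SD, n = 3) against 204 ± 22.5 CPM for KO (SD, n = 5), a ratio of 2.79. On the log2 scale the fitted difference was 1.48 (SE 0.11). It was 1.57 (SE 0.07) in KO 4 to KO 6 and 1.35 (SE 0.10) in KO 2 and KO 3, so it was of like size in the libraries that stood apart and in the remaining ones. With lens genes left out of the table it was 1.49. Across the 31 alternative fits, it ran from 1.33 to 1.57. Such values chose the gene, so they are no separate support for its difference.

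**Figure D1:**
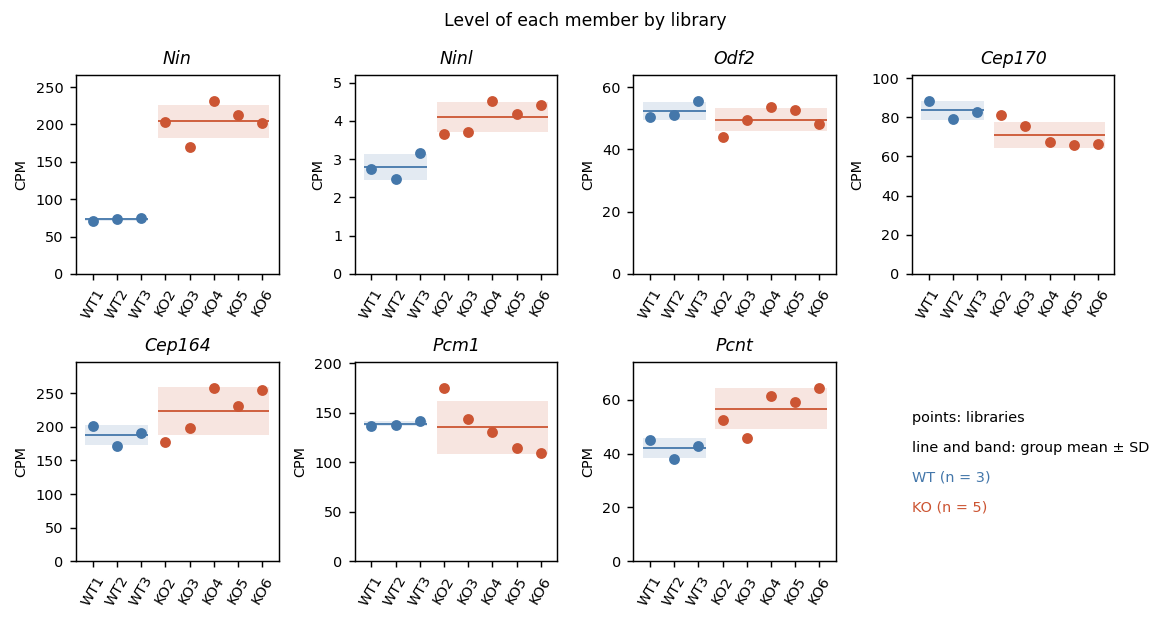
Level of the 7 members (CPM, vertical axes from 0) in each of the 8 libraries, with points for libraries and lines with bands for the group mean ± SD. Nin sits at 70.6 to 74.8 CPM in the WT libraries and at 170 to 232 CPM in those labelled KO, while the groups overlap for Odf2, Cep170, Cep164 and Pcm1.

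Of the 6 other members, edgeR's quasi-likelihood test called none at an adjusted p-value under 0.05, where 7.58% of the 20167 tested genes were called. At an unadjusted p-value under 0.05 there were 3 (Ninl, Cep170 and Pcnt), where 27.3% of tested genes were. DESeq2 called 1 of the 6, Pcnt, as higher (15.5% of all genes, 9.74% higher and 5.78% lower). The limma voom fit with library weights called 4 (40.9% of all genes, 20.3% higher and 20.6% lower). Their log2 fold changes were above 0 for 3 (Ninl, Pcnt and Cep164) and below 0 for 3 (Odf2, Cep170 and Pcm1). For 2 of them every library labelled KO was above every WT library, as it was for 10.8% of tested genes, and for none was every such library below (10.1%). Passing these thresholds was thus not rare among all tested genes. The shares do not measure the size of a difference, and no test of the 6 as a set was made. In bulk retina, fewer cells of a type and less RNA per cell cannot be told apart.

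Among the members of the subdistal appendages and their kin, Ninl is the closest to Nin. It binds gamma-tubulin complexes and the dynein motor, and a form of it has been tied to the ciliary protein lebercilin. Ninl was scarce, at 50, 53 and 71 counts in WT 1 to WT 3 and 84, 78, 92, 82 and 97 counts in KO 2 to KO 6. Scaled, the WT libraries stood at 2.74, 2.49 and 3.15 CPM, and those labelled KO at 3.65, 3.71, 4.53, 4.19 and 4.42 CPM. The groups did not overlap. Means of 2.80 ± 0.334 (SD, n = 3) and 4.10 ± 0.404 CPM (SD, n = 5) gave 0.55 on the log2 scale (SE 0.17; edgeR adjusted p-value 0.0726). It was 0.66 in KO 4 to KO 6 (edgeR adjusted p-value 0.0113) and 0.39 in KO 2 and KO 3 (0.380). The overlapping gene Nanp, on the same strand, shares 2.45% of the exon bases of Ninl and had 9.84 to 15.3 CPM, with the groups overlapping, so some Ninl counts could belong to it.

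Odf2 (also called cenexin) is the scaffold on which appendages are built, upstream of ninein. Odf2 levels in WT 1 to WT 3 were 50.4, 50.9 and 55.7 CPM, against 44.1, 49.6, 53.5, 52.7 and 48.3 CPM in KO 2 to KO 6. The groups overlapped, and the log2 fold change was -0.08 (SE 0.09, edgeR adjusted p-value 0.594). In KO 4 to KO 6 it was -0.01 (SE 0.07), and in KO 2 and KO 3 -0.16 (SE 0.10). Odf2 was called in none of the 31 alternative fits, where its log2 fold change ran from -0.19 to -0.01.

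Cep170, a microtubule-binding protein of the subdistal appendages, had 88.5, 79.2 and 82.7 CPM in WT 1 to WT 3. In KO 2 to KO 6 it was at 80.9, 75.3, 67.4, 65.9 and 66.1 CPM. Only KO 2 lay within the WT range, and KO 4 to KO 6 were the lowest. The log2 fold change was -0.23 (SE 0.09, edgeR adjusted p-value 0.132), from means of 83.5 ± 4.70 and 71.1 ± 6.68 CPM (SD, n = 3 and n = 5). It was -0.32 in KO 4 to KO 6 (edgeR adjusted p-value 0.00145) and -0.10 in KO 2 and KO 3 (0.597). Nin and Cep170, both of the subdistal appendages, thus had fold changes of opposite sign.

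Cep164 marks the distal appendages and is needed for a centriole to dock and form a cilium. WT 1 to WT 3 held 201, 172 and 191 CPM of it, against 177, 199, 258, 231 and 255 CPM in KO 2 to KO 6. KO 4 to KO 6 lay above every WT library, while KO 2 and KO 3 lay within the WT range. The log2 fold change was 0.25 (SE 0.14, edgeR adjusted p-value 0.261). With KO 4 to KO 6 alone it was 0.41 (SE 0.07, edgeR adjusted p-value 4.04e-04), and with KO 2 and KO 3 alone -0.003 (0.994).

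Pcm1 is the scaffold of centriolar satellites, granules that carry proteins to the centrosome and cilium. Levels of Pcm1 ran at 136, 138 and 142 CPM over WT 1 to WT 3, against 175, 144, 130, 114 and 109 CPM in KO 2 to KO 6. The WT values fell in the middle of a wide KO spread, with KO 2 and KO 3 above all WT libraries and KO 4 to KO 6 below them. The log2 fold change was therefore close to 0 over all libraries, at -0.04 (SE 0.14, edgeR adjusted p-value 0.879). In KO 4 to KO 6 it was -0.22 (edgeR adjusted p-value 0.0185), and in KO 2 and KO 3 it had the other sign, 0.20 (0.341). The difference between these sets of libraries was not tested, since the labels do not define them.

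Pcnt (pericentrin) is the large scaffold of the pericentriolar material that holds gamma-tubulin complexes, which nucleate microtubules. Over WT 1 to WT 3 it had 45.2, 38.1 and 42.8 CPM, against 52.4, 45.7, 61.4, 59.3 and 64.5 CPM in KO 2 to KO 6. The groups did not overlap, but KO 3 was only just above WT 1. Means of 42.1 ± 3.61 (SD, n = 3) and 56.7 ± 7.57 CPM (SD, n = 5) gave 0.43 on the log2 scale (SE 0.12; edgeR adjusted p-value 0.0535). It was 0.57 in KO 4 to KO 6 (edgeR adjusted p-value 8.73e-05) and 0.22 in KO 2 and KO 3 (0.320). DESeq2 called it as well, and 10 of the 31 alternative fits did.

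**Figure D2:**
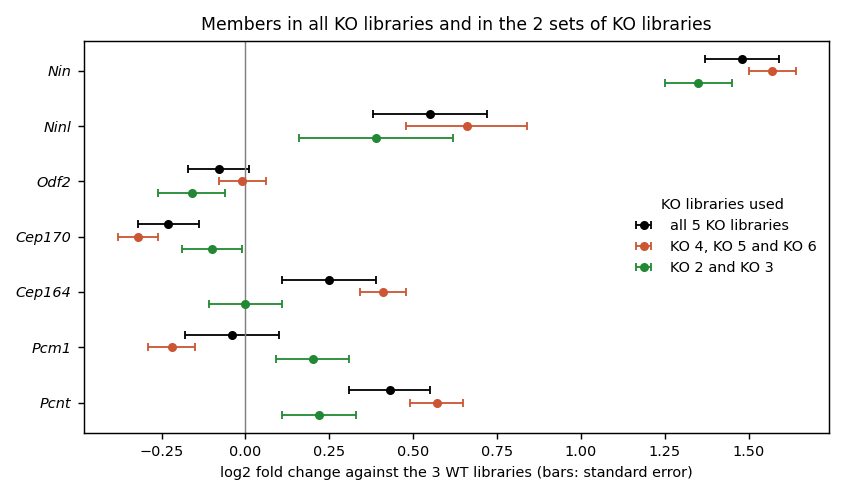
Log2 fold change of each member against the 3 WT libraries (horizontal axis, bars are standard errors), with all 5 libraries labelled KO, with KO 4 to KO 6 and with KO 2 and KO 3. Nin lies between 1.35 and 1.57 in all 3, while Pcm1 moves from -0.22 to 0.20 and Cep164 from 0.41 to about 0.

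Calls of the other members depended on which libraries were used. In KO 4 to KO 6 against WT, 5 of the 6 were called (Odf2 was not), where 42.8% of tested genes were called (22.3% higher and 20.5% lower). With KO 2 and KO 3 alone none was, where 0.891% were (0.624% higher and 0.267% lower). Of the 5 called in KO 4 to KO 6, Cep164, Pcnt and Ninl, whose longest transcripts are 57.7%, 55.4% and 53.4% G and C, were higher, and Cep170 and Pcm1, at 43.1% and 41.3%, were lower. The part of base composition in these differences was not tested, since no GC correction was fitted to KO 4 to KO 6 alone. Over all 8 libraries none of the 6 was called with GC correction, as none was without it (5.79% of the 18028 genes with a GC value were, 3.56% higher and 2.23% lower), and the log2 fold changes were 0.05 for Cep164, 0.27 for Pcnt, 0.44 for Ninl, -0.06 for Cep170 and 0.18 for Pcm1. Nin, at 47.1%, was at 1.54 with the correction.

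Levels of different genes were compared per kilobase of exon (CPM per kilobase). In WT the order was Cep164 (18.8 ± 1.46), Pcm1 (18.6 ± 0.399), Odf2 (5.28 ± 0.296), Cep170 (4.62 ± 0.260), Nin (4.29 ± 0.125), Pcnt (3.46 ± 0.297) and Ninl (0.470 ± 0.0561; SD, n = 3 throughout). The ranges over the WT libraries overlapped for Cep164 and Pcm1, and for Cep170 and Nin (4.39 to 4.90 against 4.15 to 4.40), and did not for the other neighbours in the order. In the libraries labelled KO, Nin followed Cep164 and Pcm1, at 12.0 ± 1.32 CPM per kilobase (SD, n = 5) and no more than 13.7, above Odf2 at 5.01 ± 0.377 and below Pcm1 at 18.0 ± 3.57. Per kilobase of the longest transcript, the WT order was the same, and in the libraries labelled KO Nin (20.6 ± 2.26) and Pcm1 (20.3 ± 4.02) were level within their spread. Nin, the fifth of the 7 in WT, thus stood above Odf2 and Cep170 in the libraries labelled KO on both length scales, while Ninl was the lowest in both groups.

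Counts could be shared with other genes through like sequence or overlap. Of the 31-base words in the transcripts of a member, 0% (Pcm1) to 3.327% (Ninl) occur in another gene, and 1.184% do so for Nin. The noncoding gene Gm48695 starts from the same region as Nin on the opposite strand and overlaps 80 bases of its exons. It had 0 counts in every WT library and 5, 1, 4, 0 and 6 counts in KO 2 to KO 6, too few to be tested, and in sum 0.0613% of the counts of Nin. Whether counting used the strand is not given in the sources used here, so reads in the shared bases cannot be assigned.

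Among the 5 genes whose level followed that of Nin most closely were Fgf2 (Pearson's r of log2 CPM 0.997), Sptan1 (0.996), Lrrc2 (0.996) and Lonrf1 (0.992), out of 14234 genes over the 8 libraries. These values describe the gap between the groups more than the order within them, since the libraries fall into 2 clusters for each gene, and no test was made. Fgf2, a growth factor raised in stressed retina, went from 40.3 ± 2.55 to 170 ± 32.1 CPM (SD, n = 3 and n = 5). Sptan1, the alpha chain of the spectrin membrane skeleton, was at 453 to 475 CPM in WT and 649 to 736 CPM in KO. Lrrc2 was at 33.2 to 38.3 CPM in WT and 111 to 172 CPM in KO, and Lonrf1 went from 28.4 ± 0.633 to 51.8 ± 2.58 CPM. Within the libraries labelled KO, Nin, Fgf2, Sptan1, Lrrc2 and Lonrf1 were all lowest in KO 3, the library with lens transcripts, and Nin, Fgf2, Sptan1 and Lrrc2 were highest in KO 4. Nin and Fgf2 lie on chromosomes 12 and 3, and Sptan1, Lrrc2 and Lonrf1 on chromosomes 2, 9 and 8.

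**Figure D3:**
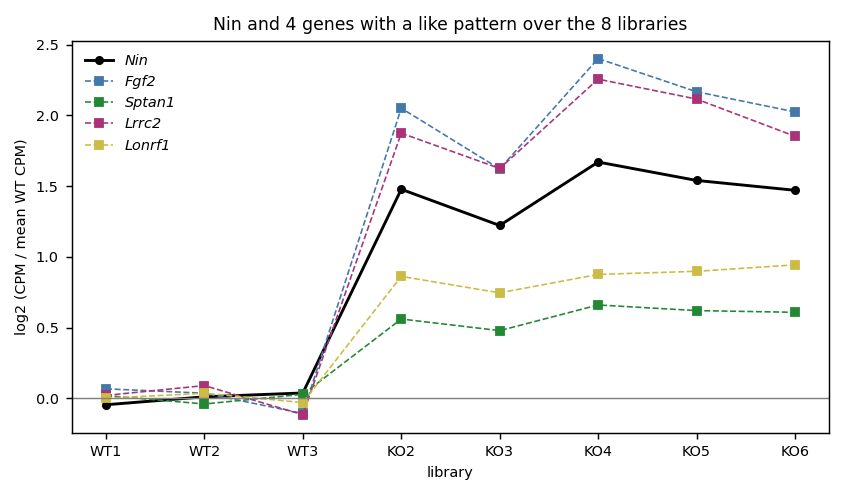
Log2 of the level over the mean WT level (vertical axis) in each library for Nin (solid line) and for Fgf2, Sptan1, Lrrc2 and Lonrf1 (dashed lines). All are near 0 in the WT libraries, above 0 in every library labelled KO and lowest among these in KO 3.

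Some genes of the lists for glia and vessels also rose, where 4.74% of all tested genes rose and 2.84% fell. All 6 genes of the reactive glia list (Gfap, Fgf2, Stat3, Osmr, Edn2 and Lif) rose. Their summed level was 119 to 132 CPM in WT and 298 to 505 CPM in the libraries labelled KO. Fgf2 is the gene named above for following Nin, and the list was drawn up with earlier results of these data known. Bulk counts do not tell in which cells these genes rose. Of the 8 endothelial and pericyte genes, 2 rose (Pdgfrb and Kdr), with sums of 307 to 318 and 392 to 486 CPM. Of the Muller glia list 3 of 7 rose (Sox9, Vim and Kcnj10; sums of 3140 to 3340 and 3280 to 4800 CPM, which overlap), and of the microglia list 2 of 6 (Csf1r and Tmem119; sums 22.9 to 25.8 and 28.6 to 40.8 CPM). The other markers of these lists were not called, nor was any of the 3 astrocyte markers (summed level at most 27.4 CPM in WT and 44.0 CPM in KO). No marker of these lists was at 0 counts throughout. The part of these markers, and of the cone genes, in the level of Nin was not tested. Centrosome genes are also abundant in dividing cells, whose 4 markers (Mki67, Top2a, Ccnb1 and Cdk1) were all below the filter. They had at most 42 counts in any library, and their summed level was 4.8 CPM in KO 3 and at most 1.48 CPM in the others. The part of dividing cells in the level of Nin was not tested.

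The wider centrosome was described with 7 lists by role, of which 99 genes were tested. Here 3 rose (3.03%) and 7 fell (7.07%), against 4.74% and 2.84% of all tested genes, and 89 were not called. The 3 that rose include Myo18a, a myosin that is no subunit of the gamma-tubulin complexes it is listed with. The median log2 fold change was -0.05, where that of all tested genes was 0.0007. With KO 2 and KO 3 alone none of the 99 was called, where 0.891% of all tested genes were. With KO 4 to KO 6 alone 57 were, 25 higher and 32 lower, where 42.8% of all tested genes were called, 22.3% higher and 20.5% lower. With GC correction 5 were called, 2 higher and 3 lower, a share near the 5.79% of all genes in that fit, and the median was 0.01.

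Of the 16 tested genes for subdistal appendages and microtubule anchoring, 1 rose and none fell (median 0.06, 0.11 with GC correction). It was Cep170b, the paralog of Cep170, which went from 79.8 ± 8.93 to 138 ± 28.5 CPM (SD, n = 3 and n = 5; log2 fold change 0.79, SE 0.17, edgeR adjusted p-value 0.0282). Its level was 131, 92.0, 146, 161 and 161 CPM in KO 2 to KO 6, and KO 3 was just above the highest WT library, at 89.8 CPM. Cep170b was called with GC correction (0.54, edgeR adjusted p-value 0.0409) but not in KO 2 and KO 3 (0.48, 0.163). Mapre3, a protein of growing microtubule ends, was at -0.22 (edgeR adjusted p-value 0.152) and was called as lower with GC correction (-0.36, 0.0419). Cntrl (centriolin), another protein of these appendages, had a log2 fold change of -0.11 (SE 0.11).

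Of the 12 distal appendage and ciliation genes none rose and 1 fell (median -0.13, -0.17 with GC correction). It was Ccp110, the cap of the centriole end that holds back cilium growth, at 84.4 ± 6.37 CPM in WT (SD, n = 3) against 68.1 ± 3.59 CPM in KO (SD, n = 5; log2 fold change -0.31, edgeR adjusted p-value 0.0436). With GC correction it was -0.12 and was not called. Among 14 tested entries for centriolar satellites, which count the symbol 4933427D14Rik under 2 identifiers, none rose and 1 fell (median -0.02, 0.17 with GC correction). This was Cep20, at 30.8 ± 3.77 CPM in WT (SD, n = 3) and 18.1 to 26.1 CPM in KO (log2 fold change -0.56, edgeR adjusted p-value 0.0388, and -0.41 with GC correction, 0.0482).

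Of the 18 genes listed under the pericentriolar material and the gamma-tubulin complexes, 1 rose and 2 fell (median -0.04, -0.01 with GC correction). The gene that rose, Myo18a, was placed in this list by the choice of genes and is no subunit of those complexes. No other gene of the list rose. Myo18a, an unconventional myosin, went from 101 ± 7.27 to 163 ± 21.7 CPM (SD, n = 3 and n = 5; log2 fold change 0.69, SE 0.12, edgeR adjusted p-value 0.0142). It remained called with GC correction (0.49, edgeR adjusted p-value 0.0387), and in KO 2 and KO 3 it was at 0.63 (0.0867). Tubgcp5, a subunit of the gamma-tubulin ring complex, fell (-0.33, edgeR adjusted p-value 0.0391), as did Cep57 (-0.39, 0.0482). With GC correction they were at -0.11 and -0.20 (edgeR adjusted p-values 0.537 and 0.189) and were not called. Cdk5rap2 and Akap9, which recruit gamma-tubulin complexes alongside pericentrin, were at 0.29 and 0.03 and were not called.

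The centriole core list had none of 14 genes higher and 2 lower, with a median of -0.27, or -0.09 with GC correction. These were Rttn (-0.45, edgeR adjusted p-value 0.0433) and Cep135 (-0.36, 0.0457), both needed to build centrioles. With GC correction they were at -0.33 (edgeR adjusted p-value 0.0731) and -0.29 (0.0546) and were not called. Of 20 dynein and dynactin genes 1 rose and none fell (median 0.00, 0.08 with GC correction). This was Dctn1, the dynactin subunit that grips microtubules, at 305 to 320 CPM over the WT libraries, against 462, 339, 488, 525 and 550 CPM in KO 2 to KO 6 (log2 fold change 0.59, SE 0.15, edgeR adjusted p-value 0.0429). With GC correction Dctn1 was at 0.37 and was not called (edgeR adjusted p-value 0.0950). Among 5 partners of Ninl at the photoreceptor cilium, Cc2d2a, a protein of the transition zone, fell from 95.3 ± 3.8 to 72.5 ± 5.05 CPM (SD, n = 3 and n = 5; log2 fold change -0.39, edgeR adjusted p-value 0.0232), and it was also called with GC correction (-0.36, 0.0211). Lca5 (lebercilin) was at -0.12 and was not called.

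**Figure D4:**
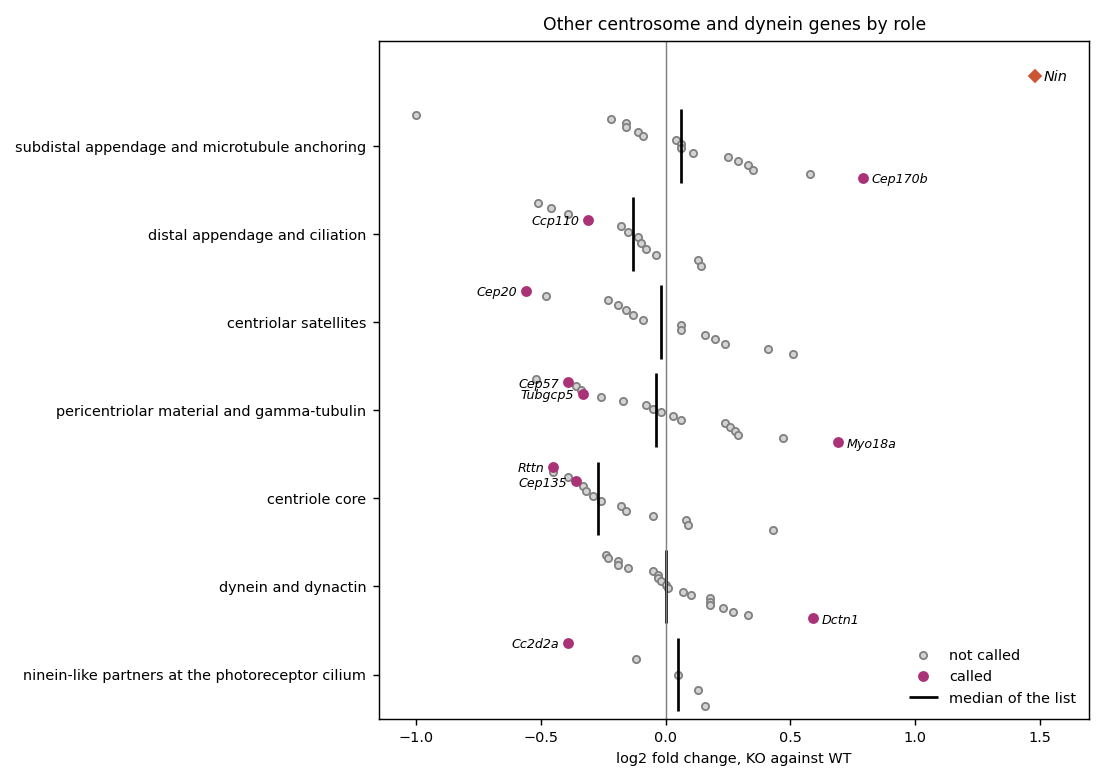
Log2 fold change of the 99 tested genes of the 7 lists (horizontal axis, 1 row a list), with called genes filled and named, the median of each list as a bar, and Nin above for scale. All genes of the lists lie between -1.0 and 0.79, and Nin is at 1.48.

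The genes next to Nin were examined after the members' values were seen. Of the 14 tested genes that reach within 500 kb of it, 1 was called, near the 7.58% of all tested genes. It was Vcpkmt, which fell (log2 fold change -0.60, edgeR adjusted p-value 0.0318), with a median over the 14 of -0.20. Sav1 and Atl1, on one side of Nin, were at -0.28 and -0.24 and were not called. On the other side, Pygl, the liver form of glycogen phosphorylase, was at 8.75 to 9.68 CPM in WT. In KO 2 to KO 6 it was at 12.7, 51.6, 9.90, 12.3 and 11.8 CPM, so KO 3, the library with lens transcripts, was far above the rest (log2 fold change 1.1, SE 0.53, edgeR adjusted p-value 0.206). Trim9, the next gene, was at 81.0 to 89.5 CPM in WT and 96.0 to 120 CPM in the libraries labelled KO (0.32, SE 0.09, edgeR adjusted p-value 0.0562; 0.52 and 0.0341 with GC correction). No neighbour had the Nin pattern of a difference of more than 1 on the log2 scale in all libraries labelled KO.

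**Figure D5:**
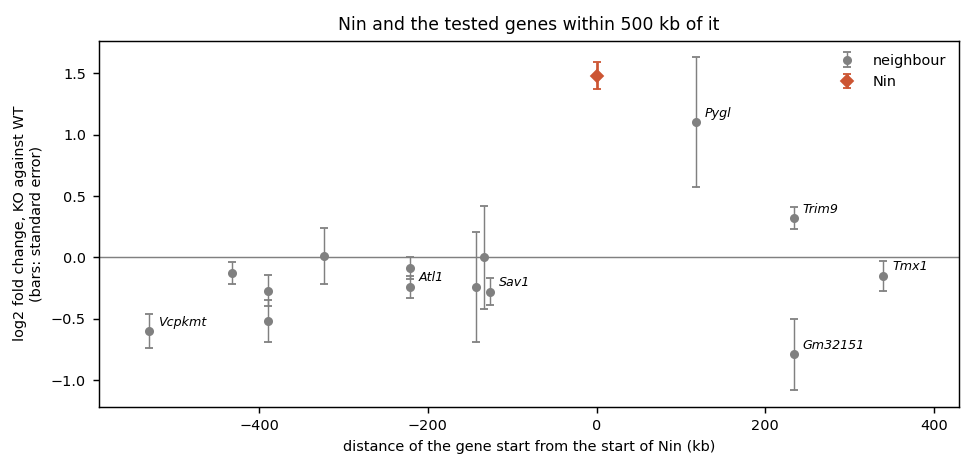
Log2 fold change (vertical axis, bars are standard errors) of Nin and of the 14 tested genes reaching within 500 kb of it, by the distance of their starts from the start of Nin (horizontal axis, kb). Nin is at 1.48, and the neighbours lie between -0.79 and 1.1, with a wide error for Pygl.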

How the data were processed

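RNA was measured in 8 retina libraries, 3 labelled WT and 5 labelled KO. The authors deposited 1 table of raw counts, whole numbers for 26824 Ensembl genes, each with at least 16 counts in all. The submitters' processing notes name Trim Galore, Salmon 1.10.2, DESeq2 and the build GRCm38, with no roles; the annotation release and strand setting are not given in the sources used here. GENCODE M21 (GRCm38) held 22121 of the identifiers and gave positions, lengths and GC content. Promoters are RefSeq windows (GRCm38.p6), found for 6 of the 7 members.

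Counts were scaled by TMM in edgeR 4.0.16 (R 4.3.3) and filtered by filterByExpr, which left 20167 genes and all 7 members. KO was compared with WT by edgeR's quasi-likelihood test on all 8 libraries, and p-values were adjusted by Benjamini-Hochberg over all tested genes. Calls were made at adjusted p-values below 0.05, and "rose" or "fell" is written only of called genes. Each standard error is the fold change divided by the root of F. Alternatives were DESeq2 1.42.0, limma 3.58.1, other scalings and filters, GC and length offsets, and fewer libraries. On simulated counts, 118 of 200 genes changed 2-fold were called (59.0%) among 19692 tested.

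The members and lists were chosen with earlier results of these data known. Named genes are the members, Kcnv2, called genes of the lists and the 5 genes most like Nin (mean log2 CPM of at least 1, prior count 2, sex-linked genes left out); other genes named, including the neighbours of Nin, were chosen after their values were seen. Single results for 2 of these genes are not reported here. No libraries of a group agreed within sampling noise (chi-square per degree of freedom 5.85 or more). Intervals of counting are not given, and depth bears on Ninl more than on the other members.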

Additional observations from a re-analysis of the deposited data

Results flagged for a closer look

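Gaps were looked for among the 5 libraries labelled KO in 23 genes, and 2 passed the limit of 0.71 of the range, where chance flags about 1 in 20 groups. Kcnv2 in KO 2 stood above the other libraries labelled KO, at 585 CPM, by a gap of 0.738 of their whole range. Cep135, a centriole core gene, was highest in KO 3, at 25.9 CPM, by a gap of 0.747 of their range. No member of the group had such a gap.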

How the results depend on the processing

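Nin kept its direction in all 31 alternative fits (1.33 to 1.57). Pcm1 changed sign: 0.18 with GC correction, 0.011 and 0.024 without KO 5 or KO 6 (-0.16 at the lowest with 1 library left out), 0.013 without KO 3 and KO 6, 0.045 without KO 4 and KO 5, 0.061 without KO 4 and KO 6, 0.11 without KO 5 and KO 6, and 0.20 without KO 4 to KO 6, where Cep164 was at -0.003. The cause was not tested.

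Of the 6 other members, 0 were called in the main comparison; with 1 library left out it was 0 to 3 (3 without KO 2, where 2781 of all genes were called, and 2 without KO 3, where 3992 were). It was 1, Pcnt, with DESeq2 (3130 of all genes called), with DESeq2's size factors (1508), with at least 50 counts in 3 libraries (1822) and without KO 3 and KO 4 (2540), KO 3 and KO 5 (2225) or KO 3 and KO 6 (2593). It was 1, Cep170, with the length offset (1293), 4 with limma voom (8248) and 5 without KO 2 and KO 3 (8416).

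All called genes numbered 1529. Leaving out any 1 of the 8 libraries moved this by more than 1.5 times, from 132 (WT 1) to 3992 (KO 3). DESeq2 gave 3130 and limma voom 8248. Without KO 2 and a second library the count was 8416 (KO 3), 399 (KO 4), 496 (KO 5) and 645 (KO 6). Without KO 3 and KO 4 it was 2540 and without KO 3 and KO 6 2593. Without KO 4 and KO 5, KO 4 and KO 6, or KO 5 and KO 6 it was 118, 191 and 203, and without all 3 it was 180.

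Of the 99 list genes 10 were called. Leaving out 1 library gave 0 (any WT library) to 30 (KO 3). DESeq2 called 20, limma voom 52, the GC offset 5 and the table with no filter 4. Without KO 2 and KO 3 it was 57, and without KO 2 and KO 4, KO 5 or KO 6 it was 1, 1 and 2. Without KO 3 and KO 4 it was 17 and without KO 3 and KO 6 16. It was 0 without any 2 or all 3 of KO 4 to KO 6.

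Replicate numbers 2 and 3 occur in both groups, and the main comparison did not take them as pairs. Same-numbered deviations correlated at -0.19. With 2 libraries of each group this is a single contrast, so it cannot decide whether the numbers mark pairs. In the 4 libraries concerned, the replicate block gave 52 genes, no block 14 and a crossed pairing, added after seeing the data, 527; of the list genes it called 0, 0 and 1. Under the block Nin was at 1.33 and Pcm1 at 0.18, with no block Pcm1 was at 0.19 and crossed at 0.18, and none of the other members was called. Ninl, at 50 to 97 counts, has the fewest counts of the members, so depth bears on it more than on the others.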
